A study of Mus musculus with 6 samples.

Results

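The proteasome genes measured here were the 44 gene symbols of the Psma, Psmb, Psmc, Psmd and Psme families that reached at least 10 counts summed over the 6 libraries, out of 48 symbols with such a name and 34590 genes in the count files. Of these 44, 42 encode subunits, base chaperones or activators of the proteasome. Psmc3ip, which encodes a factor of meiotic recombination, and Psme2b-ps, a pseudogene copy of Psme2, were included by the form of the name alone. Psmb11, which encodes the catalytic subunit of thymic epithelium, held 6 counts in all, and the pseudogenes Psmb5-ps, Psmb6-ps and Psmb7-ps2 held 0, so these 4 symbols were left out. Psma8, the spermatogenic counterpart of Psma7, passed the count minimum but not the expression filter of the test, so 43 members were tested.

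The proteasome is a barrel-shaped protease that degrades proteins marked with ubiquitin. Its core particle has outer alpha rings that gate the barrel and inner beta rings that hold the active sites, and a regulatory cap of ATPases, scaffold subunits and a lid receives, unfolds and feeds in the substrates. Interferon-gamma exchanges the standard catalytic subunits Psmb5, Psmb6 and Psmb7 for the immune subunits Psmb8, Psmb9 and Psmb10 in newly built cores and raises the activator PA28 alpha and beta (Psme1 and Psme2), and leukocytes carry the immune form without such a stimulus. The immune form alters which peptides are cut for display on MHC class I.

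RNA came from frozen biopsies of whole skin of C57BL/6 mice. One group was 3 wild type mice (Tnip1+/+) and the other 3 knockout mice (Tnip1-/-), and by title and treatment field every mouse had received imiquimod on the skin for 2 days. Imiquimod is a Toll-like receptor agonist that gives psoriasis-like inflammation, and Tnip1 encodes a ubiquitin-binding protein that restrains NF-kB signalling. The labels give neither the deleted part of Tnip1, nor age, nor sex, and no untreated group was analysed here.

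The gene counts of a library totalled 24701074 to 31005554 for wild type and 19529970 to 25864730 for knockout mice. Where 3 values of a genotype are given, they are those of replicates 1, 2 and 3 in that order, and CPM is the count per 1e+06 counts of the library after scaling with TMM factors. Tnip1 stood at 28.1, 25.1 and 26.0 CPM in wild type and at 2.03, 1.57 and 1.83 CPM in knockout skin, which matches the labels. The submitters' library codes hold IMQ in all 3 wild type libraries and NORM in all 3 knockout libraries, while titles and treatment fields give imiquimod for all 6. The meaning of NORM is not given in the sources used here, and code series and genotype cannot be told apart. Xist was high and the Y-linked Ddx3y low in wild type replicates 2 and 3 and knockout replicate 3, and the reverse held in the other 3 libraries, so both groups held mice of both sexes. Wild type replicate 3 had a summed level of 6 cycling-cell markers (Mki67, Top2a, Ccnb1, Cdk1, Bub1 and Aurkb) of 588 CPM, against 211 and 174 CPM in wild type replicates 1 and 2 and 606 to 1016 CPM in knockout skin.

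Genes for the standard core and the cap were higher in knockout skin, whereas genes for the immune catalytic subunits were not. Of 31 tested subunits of the standard core and the cap base and lid, 26 were higher and 0 lower at an adjusted p under 0.05 (edgeR quasi-likelihood test, Benjamini-Hochberg adjustment over 16691 genes), and their median log2 fold change, knockout minus wild type, was 0.67. Over all tested genes 22.3% were called higher and 22.7% lower, 45.1% in either direction, with a median of -0.04. The count of 0 lower held also at an unadjusted p under 0.05 and with DESeq2 or limma voom. Among the 3 immune catalytic subunits 0 were higher, by the same 3 measures too, and 1 (Psmb9) was lower, with a median of -0.19. Over all 43 members 28 were higher and 2 lower, and the median was 0.49. The wild type and knockout values did not overlap for 33 members with the knockout above and for 2 with the knockout below, against 29.2% and 30.5% (together 59.8%) of all tested genes.

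The scaling of the libraries bears on these counts. Scaling by library size without TMM factors left 21 members called higher, among them 9 in place of 14 cap base and lid subunits. It moved the median of all tested genes from -0.04 to -0.19 and the share of all calls that were higher from 49.6% to 34.1%. The 42 subunits, chaperones and activators together reached 3364, 3337 and 3304 CPM in wild type and 4716, 4758 and 4574 CPM in knockout skin, so the groups lay far apart relative to their spread. In whole skin, a different number of cells of a type and a different amount of RNA per cell cannot be told apart.

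**Figure D1:**
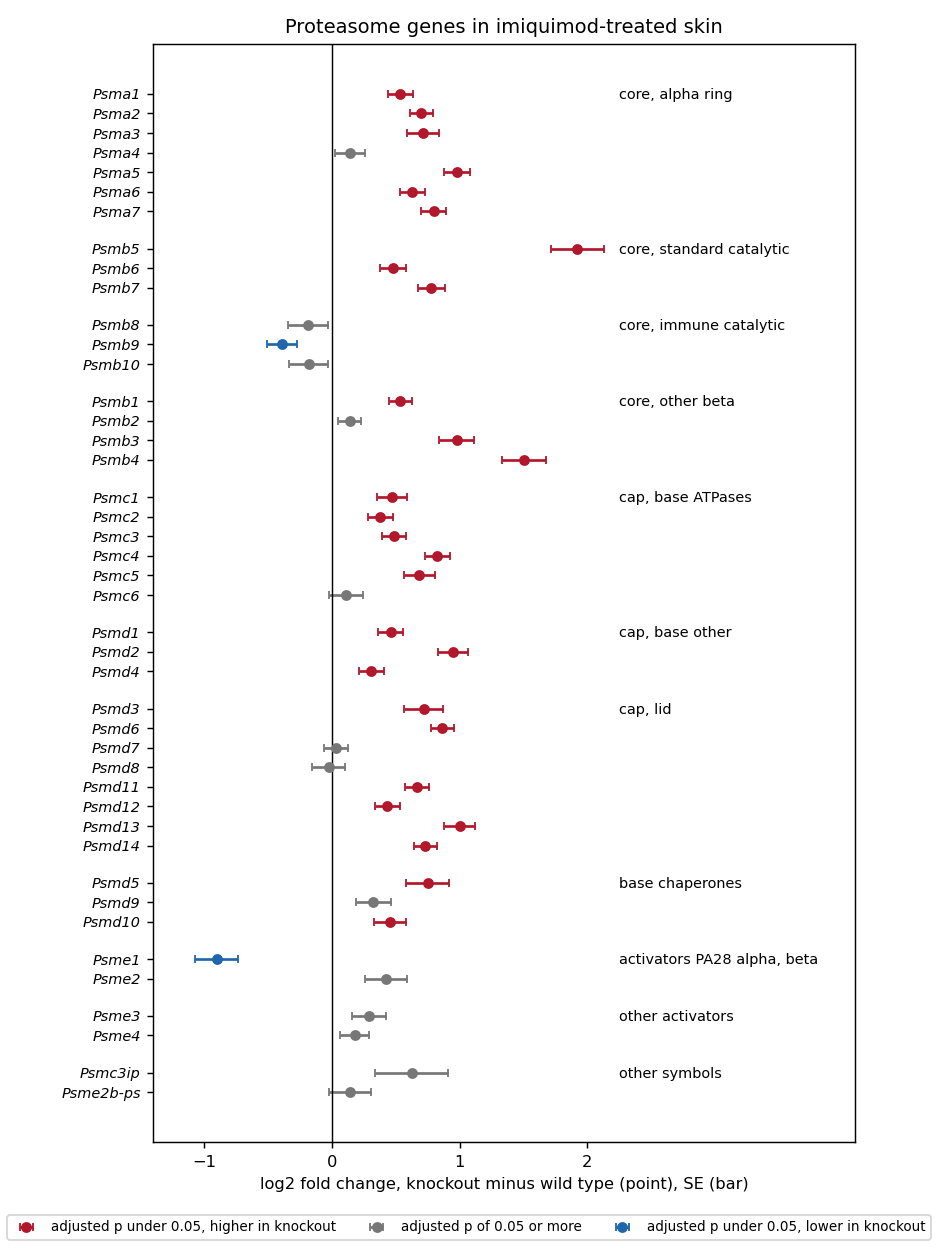
Log2 fold change, knockout minus wild type, of the 43 tested genes (points) with SE (bars), from 3 libraries per genotype and grouped by their place in the proteasome. Red points, called higher, make up most of the alpha ring, the standard catalytic subunits and the cap, with Psmb5 farthest right at 1.92. Blue points, called lower, are Psmb9 at -0.39 and Psme1 at -0.90.

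Of the 4 promoter stretches that follow, the pair Psmb5 and Psmb8 belongs to the catalytic position at which standard and immune subunit diverged most, and the pair Psmb6 and Psmb9 to a position at which they diverged less. They come from the RefSeq promoter table of build GRCm38.p6, while the counts were made on mm9, so the coordinates are not those of the count files. Each is 120 bases long, reads 5′ to 3′ on the gene's strand and ends at the base before the annotated start. Capitals mark an antioxidant response element, the site form of Nfe2l1 and Nfe2l2 with their Maf partners (TGACNNNGC), or a STAT element (TTCNNNGAA), found by letter match on both strands. The stretches are chr14:54617996-54618115 on the minus strand for Psmb5, chr17:34198075-34198194 on the plus strand for Psmb8, chr11:70525237-70525356 on the plus strand for Psmb6 and chr17:34187331-34187450 on the minus strand for Psmb9.
Psmb5: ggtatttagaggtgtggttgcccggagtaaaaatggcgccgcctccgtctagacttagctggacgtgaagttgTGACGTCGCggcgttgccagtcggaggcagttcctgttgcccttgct
Psmb8: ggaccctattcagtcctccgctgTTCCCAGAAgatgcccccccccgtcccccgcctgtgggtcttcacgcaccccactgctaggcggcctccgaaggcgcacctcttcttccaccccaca
Psmb6: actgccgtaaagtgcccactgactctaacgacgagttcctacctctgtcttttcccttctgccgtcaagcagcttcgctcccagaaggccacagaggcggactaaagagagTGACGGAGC
Psmb9: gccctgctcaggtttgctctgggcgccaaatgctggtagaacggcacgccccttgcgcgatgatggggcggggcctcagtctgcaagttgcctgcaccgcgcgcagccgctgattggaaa
Psmb5 and Psmb6 each held an antioxidant response element, beginning 47 and 9 bases upstream of the start, and Psmb8 held a STAT element that began 97 bases upstream. The Psmb9 stretch held neither motif.

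Among the 44 members 37 had an entry in the table. In the 250 bases before the start, 5 of the 37 held an antioxidant response element, 1 a STAT element, 3 an interferon-stimulated response element (GAAA, any 2 bases, GAAA) and 14 a CCAAT box. Over all 32851 windows of that length in the table, 10.2% held the first, 7.02% the second, 2.98% the third and 33.8% the fourth. Of 25 standard core and cap genes with an entry, 4 held an antioxidant response element (Psmb5, Psmb6, Psmc6 and Psmd12), 2 an interferon-stimulated response element, 0 a STAT element and 10 a CCAAT box. Of the 5 genes for immune catalytic subunits and PA28 alpha and beta, 0 held an antioxidant response element, 0 an interferon-stimulated response element, 1 a STAT element (Psmb8) and 1 a CCAAT box (Psmb9). A match describes letters in a window and is not a measurement of binding. Psma8, Psmb7, Psmb1, Psmb2, Psmc3, Psmd3 and Psmd7 had no entry.

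Psmb5, which encodes the subunit with chymotrypsin-like activity, had the largest rise of all members. It stood at 17.9, 11.0 and 16.9 CPM in wild type skin and at 65.4, 56.4 and 51.9 CPM in knockout skin. The lowest knockout library was far above the highest wild type library, and wild type replicate 2 was the lowest of all. The fold change was 3.79 (log2 1.92, SE 0.21, adjusted p = 0.00105).

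The other standard catalytic subunits rose less. Psmb7, with trypsin-like activity, stood at 86.7, 75.4 and 90.4 CPM in wild type and 149, 143 and 141 CPM in knockout skin, a fold change of 1.72 (log2 0.78, SE 0.11, adjusted p = 0.00233). Psmb6, with caspase-like activity, stood at 86.6, 78.0 and 92.3 CPM and 117, 121 and 119.5 CPM, a fold change of 1.39 (log2 0.48, SE 0.10, adjusted p = 0.009995). Neither gene had a knockout library within the wild type range, and the knockout libraries of Psmb6 had an SD of 1.88 CPM. With library totals alone the Psmb6 difference no longer passed the test (log2 0.32, adjusted p = 0.0847).

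No rise was called among the immune catalytic subunits. Psmb8, which takes the place of Psmb5, stood at 78.5, 64.2 and 52.8 CPM in wild type and 53.3, 58.6 and 59.7 CPM in knockout skin, and the knockout values lay inside the wild type range (log2 -0.19, SE 0.16, adjusted p = 0.353). Psmb10, which takes the place of Psmb7, stood at 33.4, 27.2 and 23.9 CPM and 26.8, 23.9 and 23.8 CPM, with ranges that overlapped (log2 -0.18, SE 0.15, adjusted p = 0.340). Wild type replicate 1 was the highest library for all 3 immune subunits and wild type replicate 3 the lowest wild type library.

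Psmb9, which takes the place of Psmb6, stood at 32.1, 29.3 and 27.1 CPM in wild type and 22.1, 24.1 and 21.4 CPM in knockout skin. The groups did not overlap, and Psmb9 fell by 0.39 as a log2 value (SE 0.12, adjusted p = 0.0310), to 76.3% of the wild type level. This call was not firm: the adjusted p was 0.0871 without wild type replicate 1, 0.0955, 0.0737 and 0.112 without knockout replicates 1, 2 and 3, and it also missed the threshold with no expression filter. Exons of Psmb9 overlap those of Tap1 on the opposite strand over 212 bases (GENCODE M21 annotation, GRCm38), and those of Psmb8 overlap the predicted gene Gm20496 over 498 bases. On the standard side, exons of Psmb7 overlap those of Nek6 on the opposite strand over 405 bases, and those of Psmb5 hold the microRNA gene Mir686 on the same strand over 109 bases. Psma4, Psma5, Psmc3, Psmd1, Psmd3, Psmd9, Psmd13 and Psme1 also overlap a gene on the opposite strand. The libraries were made with a stranded kit, but the strand option of the counter is not given in the sources used here. Reads of such neighbours may therefore have been shared or lost.

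**Figure D2:**
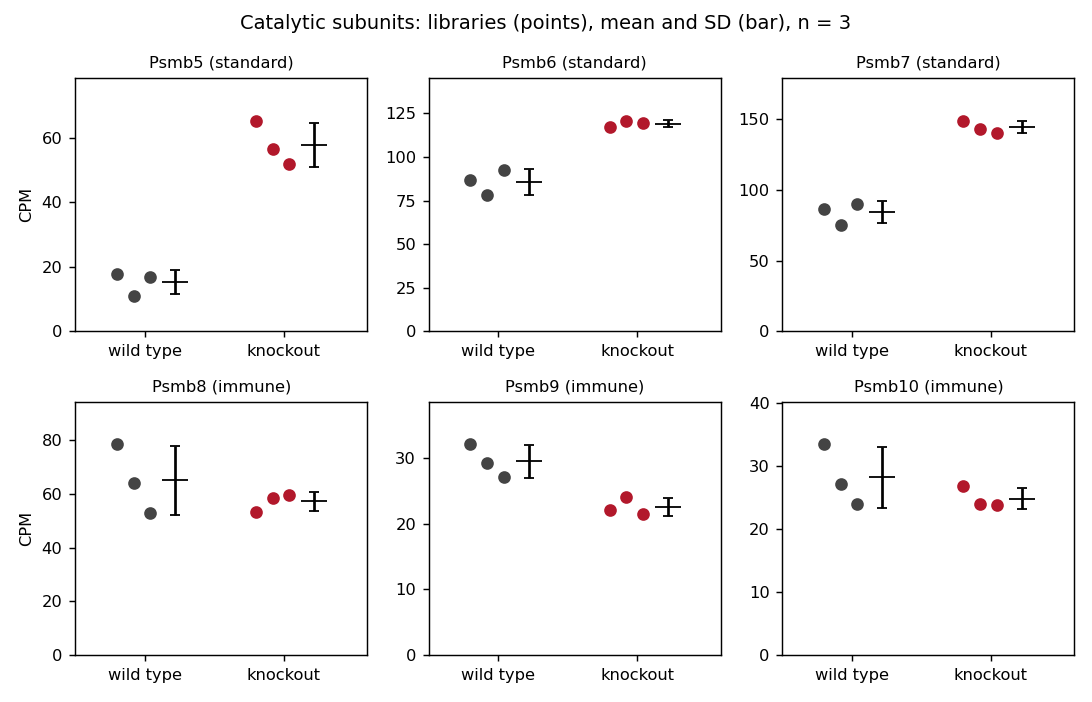
Level in CPM of the 6 catalytic subunits in each library (points: dark for wild type, red for knockout), with mean and SD (bars, n = 3), each panel with its own axis from 0. The knockout points lie above the wild type points for the standard subunits Psmb5, Psmb6 and Psmb7, inside or overlapping the wild type range for Psmb8 and Psmb10, and below it for Psmb9.

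Within each library the immune subunit was set against its standard partner as a log2 ratio of counts, a measure that does not depend on the scaling between libraries. Psmb8 over Psmb5 was 2.13, 2.55 and 1.64 in wild type skin and -0.30, 0.06 and 0.20 in knockout skin, a difference of -2.12, or a ratio 4.35-fold lower. In counts, there were 3.12 to 5.84 Psmb8 reads for each Psmb5 read with Tnip1 and 0.815 to 1.15 without it.

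Both other pairs moved the same way by smaller amounts. Psmb9 over Psmb6 was -1.43, -1.41 and -1.77 in wild type and -2.41, -2.33 and -2.48 in knockout skin, a difference of -0.87, or 1.83-fold. Psmb10 over Psmb7 was -1.37, -1.47 and -1.92 in wild type and -2.48, -2.58 and -2.56 in knockout skin, a difference of -0.95, or 1.94-fold. For each of the 3 pairs the groups did not overlap, and the exact two-sided permutation test gave p = 0.1 (0.1 after adjustment over the 3 pairs), which is the smallest value this test can give with 3 against 3 libraries.

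**Figure D3:**
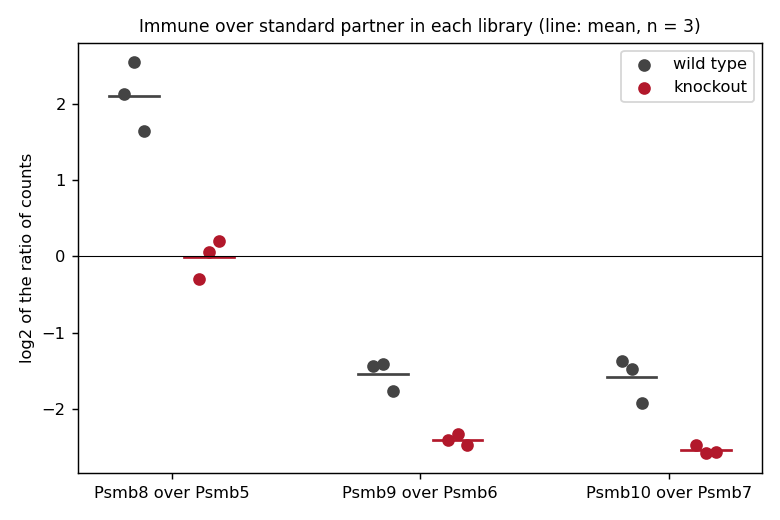
Log2 ratio of counts of each immune subunit over its standard partner in each library (points: dark for wild type, red for knockout; lines: group means, n = 3). All 3 knockout libraries lie below all 3 wild type libraries in each pair, and the gap is widest for Psmb8 over Psmb5, whose means are 2.11 and -0.01.

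Counts depend on transcript length, so the share of the immune subunits was taken from CPM per kilobase of exon (union of exons, GENCODE M21). Psmb8, Psmb9 and Psmb10 made up 36.1%, 36.1% and 28.2% of the summed level of the 6 catalytic subunits in wild type skin and 17.3%, 18.3% and 18.7% in knockout skin. The group means were 33.5% ± 4.58 and 18.1% ± 0.716 (SD, n = 3), and the wild type libraries lay well above the knockout libraries. Position by position, Psmb8 was 53.4% ± 7.76 of its pair in wild type and 20.96% ± 2.87 in knockout skin, Psmb10 40.1% ± 4.76 and 25.6% ± 0.747, and Psmb9 15.04% ± 1.72 and 8.81% ± 0.422. With the longest transcript as the length, the Psmb8 share was 66.8% and 31.9%, so the size of these shares depends on the length chosen while their order between genotypes did not.

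The remaining beta subunits, which shape the inner rings and carry no active site, were Psmb1, Psmb2, Psmb3 and Psmb4, and 3 of these 4 rose. Psmb4 stood at 66.0, 41.8 and 58.0 CPM in wild type and 161, 150.4 and 159 CPM in knockout skin, a fold change of 2.83 (log2 1.503, SE 0.17, adjusted p = 0.00133). Psmb3 stood at 64.0, 46.9 and 61.0 CPM and 111, 116 and 112 CPM (log2 0.98, SE 0.14, adjusted p = 0.00241). As with Psmb5, wild type replicate 2 was the lowest library for both genes, and no knockout library reached down to the wild type range. Psmb1 rose by less (log2 0.54, SE 0.09, adjusted p = 0.00460). Psmb2 stood at 76.8, 71.7 and 75.4 CPM and 80.1, 84.9 and 81.4 CPM, a small difference without overlap that did not pass the test (log2 0.14, SE 0.09, adjusted p = 0.253).

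Of 7 tested alpha subunits, which form the outer rings and the gate, 6 rose and their median log2 fold change was 0.70. The largest rise was that of Psma5, which stood at 49.3, 45.0 and 51.2 CPM in wild type and 95.1, 99.4 and 92.4 CPM in knockout skin (fold 1.97, log2 0.98, SE 0.10, adjusted p = 0.000922). Psma7 followed with 93.4, 82.1 and 84.8 CPM and 151, 152 and 149 CPM (log2 0.80, SE 0.10, adjusted p = 0.00157). Knockout values of these genes lay within a narrow band above every wild type library. Psma3, Psma2, Psma6 and Psma1 rose by 0.71, 0.70, 0.63 and 0.54 on the log2 scale, with adjusted p from 0.00197 (Psma2) to 0.00542 (Psma1). Psma4 was the exception, with 125, 159 and 137 CPM in wild type and 149.7, 158 and 155 CPM in knockout skin, where wild type replicate 2 was the highest of all 6 (log2 0.14, SE 0.12, adjusted p = 0.363).

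Psma8 held 17, 28 and 5 counts in wild type skin and 6, 4 and 5 in knockout skin. The higher values were those of wild type replicates 1 and 2, and the other 4 libraries held 4 to 6 counts. Without wild type replicate 3 the gene passed the expression filter and was called lower. It passed there through wild type replicates 1 and 2 alone, where it was high, so this call is no support. Markers of spermatogenic cells (Prm1, Prm2, Tnp1 and Ddx4) summed to 0.0862 to 0.480 CPM in the 6 libraries, and Prm2 was at 0 throughout. Most of their few counts were of Ddx4, with 15, 8 and 5 in wild type and 1, 6 and 4 in knockout skin. The sum was highest in wild type replicates 1 and 2, at 0.480 and 0.306 CPM.

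In the cap, 14 of 17 base and lid subunits rose and 0 fell, with a median log2 fold change of 0.49. The 6 ATPases that unfold the substrate gave 5 rises. Psmc4 had the largest, with 67.2, 61.3 and 67.2 CPM in wild type and 117, 121 and 109 CPM in knockout skin (log2 0.82, SE 0.10, adjusted p = 0.00150). Psmc5, Psmc3, Psmc1 and Psmc2 rose by 0.69, 0.49, 0.47 and 0.38 on the log2 scale. Psmc6 stood at 137, 183 and 147 CPM and 159, 174 and 171 CPM, with overlapping groups (log2 0.11, adjusted p = 0.531). As for Psma4, its highest library was wild type replicate 2. Calls for Psmc1 and Psmc2 were lost when single libraries were left out (Psmc1 adjusted p = 0.0510 without wild type replicate 3 and 0.0511 without knockout replicate 2, Psmc2 adjusted p = 0.0584 without wild type replicate 3 and 0.0616 and 0.0673 without knockout replicates 1 and 2).

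All 3 of the other base subunits rose. Psmd2, a scaffold that docks ubiquitin shuttles and the deubiquitinase Usp14, was the most abundant member in CPM in knockout skin, with 183, 148 and 164 CPM in wild type and 329, 322 and 307 CPM in knockout skin (fold 1.93, log2 0.95, SE 0.12, adjusted p = 0.00174). Psmd1, the second large scaffold, rose by 0.46 in log2 units (SE 0.10, adjusted p = 0.00935). The ubiquitin receptor Psmd4 stood at 100.0, 103 and 99.5 CPM and 132, 125 and 117 CPM (log2 0.31, SE 0.10, adjusted p = 0.0353). Its groups did not overlap, but the call was lost without wild type replicate 1 or 3 and without each knockout library in turn (adjusted p from 0.0583 to 0.1005).

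In the lid, which removes the ubiquitin chain, 6 of 8 subunits rose. Psmd13 stood at 53.3, 43.6 and 55.0 CPM in wild type and 105, 98.9 and 100.4 CPM in knockout skin, a fold change of 2.001 (log2 1.00, SE 0.12, adjusted p = 0.00148). Psmd14, the deubiquitinase of the lid, stood at 73.9, 75.5 and 74.9 CPM and 125, 124 and 123 CPM (log2 0.73, SE 0.09, adjusted p = 0.00150). Psmd6 stood at 68.1, 68.8 and 67.5 CPM and 128, 119 and 125 CPM (log2 0.87, SE 0.09, adjusted p = 0.000958). Psmd14 and Psmd6 had among the tightest wild type groups of the family, with SDs of 0.775 and 0.665 CPM. Their knockout SDs were 0.948 and 4.32 CPM. Psmd3, Psmd11 and Psmd12 rose by 0.72, 0.67 and 0.43 on the log2 scale.

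Psmd7 and Psmd8 were the lid genes without a call. Psmd7, which pairs with Psmd14 in the lid, stood at 63.6, 63.8 and 66.2 CPM in wild type and 69.9, 64.4 and 63.4 CPM in knockout skin (log2 0.03, SE 0.10, adjusted p = 0.806). Psmd8 stood at 148, 183 and 152 CPM and 155, 173 and 146 CPM, with wild type replicate 2 again the highest (log2 -0.03, SE 0.13, adjusted p = 0.874). Both genes changed sign under other settings, Psmd7 with library totals alone, upper-quartile factors or without knockout replicate 1, and Psmd8 without wild type replicate 2 or knockout replicate 3.

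Chaperones that assemble the base are Psmd5, Psmd9 and Psmd10. Psmd5 stood at 29.9, 26.1 and 39.1 CPM in wild type and 48.8, 53.1 and 58.0 CPM in knockout skin (log2 0.75, SE 0.17, adjusted p = 0.0118). Psmd10 was lower in level and rose from 11.9, 11.3 and 10.7 CPM to 16.5, 14.1 and 15.9 CPM (log2 0.45, SE 0.13, adjusted p = 0.0254), and its call was lost without wild type replicate 3, knockout replicate 1 or knockout replicate 3 (adjusted p = 0.0671, 0.0758 and 0.0740). Psmd9 gave 0.32 on the log2 scale and did not pass the test (SE 0.14, adjusted p = 0.0924). Its exons overlap those of Gm26745 on the opposite strand over 1849 bases.

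**Figure D4:**
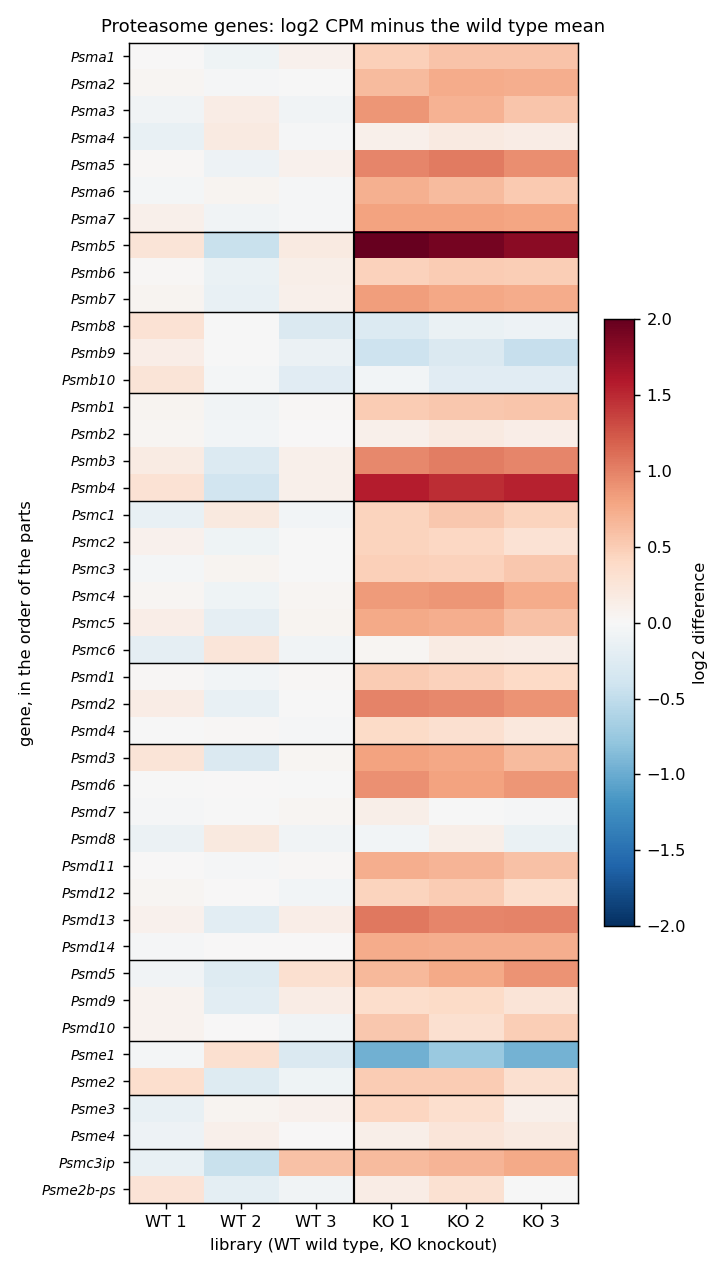
Log2 CPM of each of the 43 tested genes in each library minus its wild type mean (red above, blue below), with genes in the order of the proteasome's parts and the vertical line between genotypes. The knockout columns are red for most standard core and cap genes and alike between replicates, while the rows of Psmb8, Psmb9, Psmb10 and Psme1 are pale or blue there. Wild type replicate 2 is bluer than its fellows in rows such as Psmb5 and Psmb4 and redder in Psme1.

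The activators gave 0 rises and 1 fall among 4 genes in edgeR, with no rise called by DESeq2 or limma voom either, and Psme2 alone had an unadjusted p under 0.05 in the upward direction. The share called lower, 25%, was near the 22.7% of all tested genes, of which 22.3% were called higher. Psme1, the alpha chain of the PA28 ring that opens the core for peptides, stood at 136, 174 and 114 CPM in wild type and 71.5, 83.2 and 72.2 CPM in knockout skin. The groups did not overlap, and Psme1 fell by 0.90 as a log2 value (SE 0.17, adjusted p = 0.00619), to 53.4% of the wild type level. Psme2, the beta chain of the same ring, stood at 85.8, 56.7 and 64.1 CPM and 96.3, 96.4 and 84.7 CPM, with knockout replicate 3 just below wild type replicate 1 (log2 0.42, SE 0.17, adjusted p = 0.0749). Without wild type replicate 1 the Psme2 difference passed the test (log2 0.63, adjusted p = 0.0143).

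The CPM of Psme1 over that of Psme2 was 1.59, 3.08 and 1.78 in wild type skin and 0.743, 0.864 and 0.853 in knockout skin. This ratio was chosen after its values were seen and is a description only. Psme2 has a near-identical pseudogene copy, Psme2b-ps. How the authors' counting treated reads that match both is not given in the sources used here. Psme2b-ps itself stood at 18.8, 13.5 and 14.8 CPM and 17.2, 19.1 and 15.6 CPM (log2 0.14, adjusted p = 0.513), so the level of both genes is uncertain.

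Psme3, the nuclear PA28 gamma chain, stood at 37.4, 43.4 and 44.2 CPM in wild type and 56.1, 52.2 and 44.6 CPM in knockout skin (log2 0.29, SE 0.13, adjusted p = 0.106). Psme4, a large single-chain activator, stood at 222, 257 and 241 CPM and 259, 284 and 272 CPM (log2 0.18, SE 0.11, adjusted p = 0.223). For both genes the knockout values lay just above the wild type values and the difference did not pass the test. Psmc3ip, the recombination factor, stood at 3.12, 2.55 and 5.22 CPM and 5.39, 5.55 and 5.85 CPM (log2 0.63, SE 0.29, adjusted p = 0.111), and without wild type replicate 3 it passed the test (log2 0.99, adjusted p = 0.0181).

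Levels compared between genes were taken per kilobase of exon. Among the 14 standard core subunits the mean wild type level ran from 13.4 CPM per kilobase for Psma3 to 62.0 for Psmb2, with a median of 28.3, and in knockout skin from 22.0 for Psma3 to 87.7 for Psma6, with a median of 56.4. Psmb5 had a wild type level of 17.0 ± 4.16 CPM per kilobase, the second lowest of the 14, and a knockout level of 64.4 ± 7.62. Among the 17 cap subunits the wild type level ran from 8.88 (Psmd11) to 54.0 (Psmc1) and the knockout level from 14.1 (Psmd11) to 79.1 (Psmd2). Psmb2, Psma4, Psmc6 and Psmd8, which were not called, had wild type levels of 62.0, 59.2, 44.5 and 52.7 CPM per kilobase, all above the medians of their parts. Psmd7, which was not called either, was the median cap subunit at 28.5.

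Across the 31 standard core and cap subunits the log2 fold change had a Spearman rho of -0.55 and a Pearson r of -0.69 with the log2 wild type CPM. The wild type level enters both quantities, the genes share the same 6 libraries, and this relation across genes is a description. With the GC content of the transcript rho was 0.22 and with its length -0.13. Of the 28 subunits called higher, 19 had their lowest wild type value in replicate 2, against 6587 of all 16691 tested genes. Without wild type replicate 2 the number of members called higher was 28 and the log2 fold change of Psmb5 was 1.73.

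Markers of several cell types moved with genotype, and their part in the proteasome differences was not tested. Beside the counts below, 22.3% of all tested genes were called higher and 22.7% lower. The 6 epidermal keratin and adhesion markers (Krt5, Krt14, Krt1, Krt10, Krt15 and Dsg3) summed to 6528 to 10740 CPM in wild type and 18810 to 21700 CPM in knockout skin, with 4 called higher and 2 lower. Krt14 dominated the knockout sums, at 2764.9, 1222.1 and 1967.5 CPM in wild type and 10645, 10059 and 13950 CPM in knockout skin. The 2 called lower were Krt10 (log2 -0.95) and Krt15 (log2 -3.08), so the markers did not move as 1 group. The 6 skeletal muscle markers summed to 7836 to 13960 CPM and 2364 to 3973 CPM, with all 6 lower and wild type replicate 2 the highest library. Of the 6 cycling-cell markers 5 were higher, and of 5 adipocyte markers 2 were lower (1365 to 2614 CPM and 71.3 to 772 CPM). Knockout replicate 2 stood apart in the latter, at 71.3 CPM against 772 and 545 CPM in knockout replicates 1 and 3. Without it 25 members were called higher. Leaving out each library in turn gave 25 to 28, and the count of 25 was not particular to this library. With haemoglobin, mitochondrial, histone, muscle marker and small RNA genes left out of the fit, the numbers of members called higher and lower were 28 and 2.

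For leukocytes, in which the immune subunits are constitutive, the markers did not move as 1 group. The 5 pan-leukocyte markers summed to 326 to 511 CPM in wild type and 452 to 546 CPM in knockout skin. Of these 5, 1 was called higher (20%), near the 22.3% of all tested genes, of which 22.7% were called lower. Neutrophil markers summed to 10.2 to 16.1 CPM and 66.0 to 102 CPM, mostly from Csf3r and Cxcr2, which were called higher. Camp and Ngp, with 0 to 3 counts in each wild type library, passed the expression filter through the knockout libraries alone, so their calls are no support, and the other 3 of the 7 were not tested. Macrophage markers summed to 583 to 846 CPM and 854 to 1252 CPM, with 2 of 5 higher. Dendritic and Langerhans cell markers summed to 41.2 to 45.4 CPM and 15.7 to 18.2 CPM, with all 5 lower, and T cell markers to 13.7 to 23.2 CPM and 9.30 to 13.9 CPM, with 2 of 5 lower. B cell markers summed to 1.17 to 2.11 CPM and 1.59 to 3.47 CPM, and the 1 of 4 that was tested was not called. No marker of these lists was at 0 in all libraries.

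Most genes for building the core also rose. Of 5 assembly chaperones 4 were higher (80%, against 22.3% of all tested genes) and 0 lower (against 22.7%), with a median log2 fold change of 0.75. Psmg3 stood at 4.23, 2.31 and 3.78 CPM in wild type and 9.57, 7.84 and 7.47 CPM in knockout skin (log2 1.27, SE 0.26, adjusted p = 0.00826), and Psmg4, Psmg2 and Psmg1 rose by 1.06, 0.75 and 0.54. These 4 chaperones help to form the alpha ring. Pomp, which guides the beta subunits into place, did not pass the test (log2 0.10, SE 0.11, adjusted p = 0.471). Psmg1 and Psmg4 lost their calls without knockout replicate 3 (adjusted p = 0.0829 and 0.0533), and Psmg1 also when wild type replicate 1 (0.0559) or knockout replicate 2 (0.0606) was left out and with both other scalings (0.0989 and 0.0535). Without knockout replicate 3 the list had 2 calls.

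Among 16 tested further parts and regulators 6 rose (37.5%, against 22.3% of all tested genes) and 0 fell (against 22.7%), with a median of 0.28. They included the ubiquitin receptor Adrm1 (log2 0.59, adjusted p = 0.00736), the deubiquitinase Usp14 (log2 0.49, adjusted p = 0.0395), the ubiquitin ligase Ube3c (log2 0.64, adjusted p = 0.00414) and the cap-bound redox protein Txnl1 (log2 0.67, adjusted p = 0.00347). The Usp14 call was lost with library totals alone (adjusted p = 0.0790), with upper-quartile factors (0.0699), with a covariate for the sex read from the counts, added after seeing the data (0.0558), and on leaving out any 1 library other than wild type replicate 2 (0.0708 to 0.1004). The small lid subunit Shfm1 and the core inhibitor Psmf1 gave 0.02 and 0.02 and did not pass the test, and both changed sign under other scalings. The list had 3 calls without wild type replicate 3, knockout replicate 1 or knockout replicate 2, and 3 with library totals alone.

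Of 9 genes for ubiquitin, its activating enzymes and the segregase VCP, 8 rose and 0 fell, with a median of 0.55. The share called higher was 88.9%, against 22.3% of all tested genes, of which 22.7% were called lower. Vcp stood at 240.5, 182 and 226 CPM in wild type and 427, 439 and 403 CPM in knockout skin (log2 0.97, SE 0.14, adjusted p = 0.00261). The activating enzyme Uba1 rose by 0.55 (not called with library totals alone, adjusted p = 0.0605), whereas the polyubiquitin gene Ubb did not pass the test (log2 0.10, adjusted p = 0.642). Rps27a, a fusion of ubiquitin with a ribosomal protein, rose by 1.52 (SE 0.11, adjusted p = 0.000318). Ubiquitin genes have near-identical copies, so the level of these genes is uncertain. The list had 5 calls without wild type replicate 3, knockout replicate 1 or knockout replicate 2, and 4 with library totals alone. For assembly chaperones, regulators and ubiquitin genes the count of 0 lower held also at an unadjusted p under 0.05, with DESeq2 and with limma voom.

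Transcription factors of proteasome genes were listed with their regulators, and below this list is named by the transcription factors. Its genes did not move together, with 3 of 12 tested higher (25%), 2 lower (16.7%) and a median of -0.02. Over all tested genes 22.3% were called higher and 22.7% lower. Nfe2l1, which raises standard proteasome genes when proteasome activity falls, stood at 325, 286 and 295 CPM in wild type and 265, 255 and 223 CPM in knockout skin, without overlap and without passing the test (log2 -0.29, SE 0.12, adjusted p = 0.0899). Nfe2l1 was called lower with library totals alone (log2 -0.45, adjusted p = 0.0281), upper-quartile factors (-0.37, 0.0342) and the sex covariate (-0.35, 0.0488). Nfe2l2, the factor of the oxidative stress response, its partner Mafg and Stat3 rose by 0.36, 0.54 and 1.09 (adjusted p = 0.0389, 0.0401 and 0.00566). The calls of Nfe2l2 and Mafg were not firm: Nfe2l2 lost its call with library totals (adjusted p = 0.149), upper-quartile factors (0.0859), no filter (0.0677) and the sex covariate (0.0569), and on leaving out any 1 library other than wild type replicate 2 (0.0592 to 0.109). Mafg lost its call with the same scalings (0.134 and 0.0607), the sex covariate (0.0729) and when any of 4 libraries was left out (0.0649 to 0.1196), wild type replicate 1 and knockout replicate 3 being the exceptions. The activity of these factors was not measured. Only 1 gene of the list was called higher without wild type replicate 3, knockout replicate 1 or knockout replicate 2, and only 1 lower without knockout replicate 2.

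Irf1, a factor of the immune subunit promoters, stood at 63.1, 53.0 and 42.9 CPM in wild type and 35.8, 28.7 and 34.7 CPM in knockout skin and fell by 0.68 as a log2 value (SE 0.17, adjusted p = 0.0165), a call that was lost without knockout replicate 2 (adjusted p = 0.0644). No knockout library lay within the wild type range. Nlrc5, the coactivator of MHC class I genes, gave -0.34 with overlapping groups (SE 0.26, adjusted p = 0.306).

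In the class I pathway, which receives the peptides the proteasome cuts, 0 of 12 tested genes rose in edgeR and 3 fell, with a median of -0.19. The share called lower, 25%, was near the 22.7% of all tested genes, of which 22.3% were called higher. At an unadjusted p under 0.05, 1 gene (Canx) was higher, and DESeq2 called 1 gene of the list higher. B2m, the light chain of class I, stood at 2359, 5534 and 2444 CPM in wild type and 1018, 1039.7 and 1019 CPM in knockout skin and fell by 1.75 as a log2 value (SE 0.35, adjusted p = 0.00796). Wild type replicate 2 was far above the other wild type libraries, and without it B2m fell by 1.23 (adjusted p = 0.00225). The peptide-loading factor Tapbp and the trimming peptidase Erap1 fell by 0.94 and 0.31 (adjusted p = 0.00658 and 0.0414). The Erap1 call was lost on leaving out any 1 library other than wild type replicate 3 (adjusted p from 0.0719 to 0.154), with no filter (0.0879), with the sex covariate (0.0690) and without haemoglobin, mitochondrial, histone, muscle marker and small RNA genes (0.0504). The peptide transporter genes Tap1 and Tap2 gave -0.50 and -0.26 and did not pass the test (adjusted p = 0.0742 and 0.265). Tap1 was called lower with library totals alone (log2 -0.66, adjusted p = 0.0423), upper-quartile factors (-0.58, 0.0439), the sex covariate (-0.58, 0.0385) and without wild type replicate 2 (-0.65, 0.0321). The heavy chains H2-K1 and H2-D1 gave -0.0006 and 0.19, also without passing (adjusted p = 0.998 and 0.371).

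**Figure D5:**
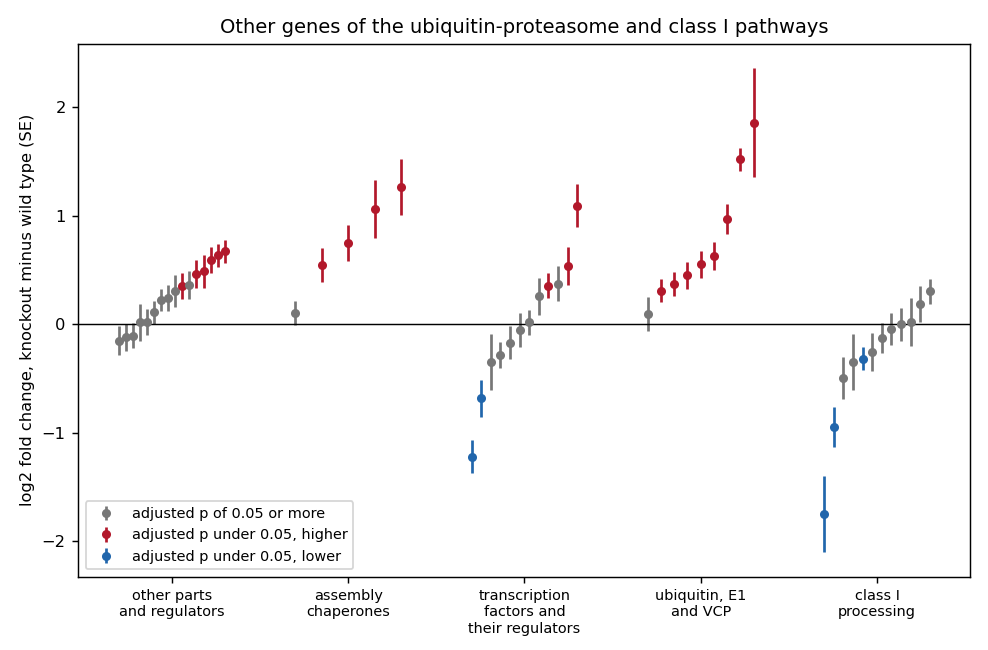
Log2 fold change, knockout minus wild type (points), with SE (bars) of the tested genes of 5 lists, sorted within each list, from 3 libraries per genotype. Red points, called higher, are most frequent among assembly chaperones (4 of 5) and ubiquitin genes (8 of 9), and blue points, called lower, appear among transcription factors (Irf1 among them) and class I genes (B2m, Tapbp and Erap1).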

How the data were processed

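RNA of whole skin was measured in 6 libraries, 3 per genotype, as ribosome-depleted total RNA in stranded, paired-end sequencing, per the labels' protocols. Replicates were separate mice, as the series' design text counts 3 of each genotype. The authors deposited counts per gene symbol, 1 file per library. Build mm9 and, as software, HTSeq, STAR, BWA, limma, R 3.2.3 and CASAVA 1.7 are named in the submitters' processing notes. Their roles, the strand option and the annotation are not given in the sources used here. Summary lines of the counter took 26.7% to 30.3% of each file and were left out.

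From these counts, the test used edgeR 4.0.16 under R 4.3.3 (filterByExpr, TMM factors, quasi-likelihood fit, Benjamini-Hochberg adjustment over 16691 genes, called at an adjusted p under 0.05), with limma 3.58.1 and DESeq2 1.42.0 as alternatives. SE is the log2 fold change divided by the square root of F, and levels are TMM-scaled CPM as mean ± SD over 3 libraries. Before logs were taken, 0.5 was added to each count of a partner ratio. Groups came from the labels. The limit of detection was taken as 3 counts (0.09 to 0.157 CPM), for counting error only. No library was a duplicate: between replicates, chi-square divided by its degrees of freedom was 33.1 to 134. Lengths came from GENCODE M21 and promoters from RefSeq, both of build GRCm38, used by gene name only. The fit was tested on simulated data.

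The members and gene lists were chosen with earlier results of these data known, by symbol and by role. All members are named, together with genes of the pathway lists that were called or chosen by role. Values of some list genes are not reported here. Alternatives covered scaling, test, dispersion, filters, a replicate block, leaving out each library, leaving out abundant gene classes, gene length and, added after seeing the data, a sex covariate.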

Additional observations from a re-analysis of the deposited data

How the results depend on the processing

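Across 16 alternatives, 37 of 43 members kept their direction, 22 of the 30 called members stayed called in each of them (21 of these higher), and Psmb6, Psmb9, Psmc1, Psmc2, Psmd1, Psmd4, Psmd10 and Psmd12 lost their call in at least 1. The number of members called higher was 28 and ranged from 21 (library totals alone) to 28, and the number of standard core subunits from 11 to 12. With library totals alone the calls higher were 9 for cap base and lid, 3 for further parts and regulators, 1 for transcription factors and 4 for ubiquitin genes. That scaling moved the median of all tested genes by more than 0.1, from -0.04 to -0.19, and it turned Psma4 (-0.0111), Psmb2 (-0.018), Psmc6 (-0.038), Psmd7 (-0.13), Psme2b-ps (-0.0209), Shfm1 (-0.13), Pomp (-0.0452), Psmf1 (-0.14) and Ubb (-0.0685). Upper-quartile factors gave 1 transcription factor higher and turned Psmd7 (-0.0536), Shfm1 (-0.0658) and Psmf1 (-0.0623). DESeq2 called 1 class I gene higher and turned H2-K1 (0.0141). With no filter the number of members lower, and that of immune subunits with PA28 alpha and beta, was 1, and H2-K1 gave 7e-04. Without haemoglobin, mitochondrial, histone, muscle marker and small RNA genes H2-K1 gave 0.0195. The sex covariate gave 26 members higher, 1 transcription factor and 5 ubiquitin genes higher and turned Psmf1 (-0.0116). With the longest transcript as the length the immune share in knockout skin was 19.2% in place of 18.1%. No gene named here as turning was called in the original fit. The cause of these shifts was not tested.

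Leaving out each library gave 25 to 28 members higher and 1 to 3 lower (the third was Psma8, tested without wild type replicate 3, which also gave 0 to 1 standard core subunits lower). Psma8 passed the filter there through wild type libraries alone, so its call is no support. For immune subunits with PA28 alpha and beta the ranges were 0 to 1 higher and 1 to 2 lower. Counts higher ranged from 3 to 6 for further parts and regulators, 2 to 4 for assembly chaperones, 1 to 3 for transcription factors (1 to 3 lower) and 5 to 7 for ubiquitin genes. Log2 fold changes ranged from -0.10 to 0.22 for Shfm1, from -0.0829 to 0.0868 for H2-K1, from -0.0788 to 0.072 for Psmd8, from -0.0302 to 0.0778 for Psmf1, from -0.0352 to 0.24 for Ubb and from -0.0055 to 0.0682 for Psmd7. The partner differences ranged from -2.35 to -1.90 for Psmb8 over Psmb5, from -0.98 to -0.81 for Psmb9 over Psmb6 and from -1.12 to -0.85 for Psmb10 over Psmb7.

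The labels number the replicates 1 to 3 in both groups. Deviations of same-numbered libraries from their group means correlated at 0.029, -0.235 and 0.21, so the numbers were not taken as pairs. With a replicate block the whole table gave 3323 genes higher and 3142 lower, and the members 26 higher and 1 lower, and immune subunits with PA28 alpha and beta 1 lower. The partner differences kept their values in the block, where the exact sign-flip test gave p = 0.25, the smallest that 3 pairs allow. Depth limits Psma8, whose counts were few.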
